A study of Homo sapiens with 6 samples.

Results

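Collagen hydroxylases, the collagen chaperone and their processing partner were followed through 10 genes of the deposited table: the prolyl 4-hydroxylase subunits P4HA1, P4HA2 and P4HB, the lysyl hydroxylases PLOD1, PLOD2 and PLOD3, the chaperone SERPINH1, the prolyl 3-hydroxylase P3H1 with its partner CRTAP, and the procollagen C-proteinase enhancer PCOLCE. The genes were taken by symbol, and all 10 were among the 17911 listed genes and the 17893 tested ones. The cells were LX-2, a human line of immortalised hepatic stellate cells, used in culture to study the matrix-producing cells of the liver. The mutant cells (MPI MT) carried a mutation in exon 3 of MPI and the wild-type cells (WT) did not, with 3 libraries of each genotype. All were poly(A)-selected RNA of untreated cultures, as far as the labels say, and the labels give neither the sequence of the mutation nor the number of clones behind the mutant cells.

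MPI encodes mannose phosphate isomerase, which links glycolysis to the mannose used in protein glycosylation. Procollagen chains are modified as they enter the endoplasmic reticulum (ER). Prolyl 4-hydroxylases stabilise the triple helix, lysyl hydroxylases prepare crosslinks and sites for sugars, and the complex of P3H1, CRTAP and the cyclophilin PPIB modifies single prolines and assists folding. SERPINH1, also called HSP47, binds the folded helix until it leaves the ER, and outside the cell PCOLCE speeds the removal of the C-terminal propeptide by BMP1. In the liver these steps serve the scar collagen that activated stellate cells deposit.

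Levels are normalised read counts, that is, reads of a gene divided by a size factor of the library. Fold changes are log2 of mutant over WT with their standard error (SE), after 1 was added to each level. A gene is said to have risen or fallen where the adjusted p of limma-trend, fitted over all tested genes, was under 0.05. Libraries held 27037905 to 34970840 recovered reads, and each of the 10 genes had between 514 and 37172 reads in a library. Whether each library had a culture of its own is not stated, so the p-values rest on differences among the 6 libraries that may be technical.

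MPI, the targeted gene, measured 1051, 978 and 1035 in mutant libraries and 1292, 1283 and 1256 in WT libraries, and fell by 0.32 ± 0.07 on the log2 scale (limma adjusted p = 0.00648). The 8 listed of 10 stellate markers summed to 155738 to 179097 in mutant libraries and to 134263 to 140941 in WT libraries, whereas DES and DCN were not among the listed genes. Most of the sum was VIM and COL1A1. VIM and TIMP1 rose, whereas ACTA2, which marks activated stellate cells, fell to 284 ± 5.70 in mutant libraries, against 559 ± 60.6 in WT libraries (SD, n = 3; limma adjusted p = 2.32e-04), and PDGFRB, COL1A2 and LUM fell too. LUM had 1 read in each mutant library and 38, 35 and 39 reads in WT libraries. Of 8 hepatocyte markers 1 was listed (SERPINA1), and ALB and APOA1 were not. Of the listed endothelial markers (4 of 6), PECAM1 and TEK rose, and VWF and KDR did not pass. Their sum was 512 to 747 in mutant and 177 to 221 in WT libraries. Of the listed leukocyte markers (4 of 6), CD14 fell, CD68 and LYZ rose and PTPRC did not pass. These summed to 296 to 324 in mutant and 498 to 579 in WT libraries. Listed epithelial markers (4 of 6, mostly SOX9) summed to 2864 to 3463 in mutant and 2060 to 2325 in WT libraries. The part of these markers in the results was not tested. In bulk RNA, a change in how many cells express a gene and a change in RNA per cell cannot be told apart.

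The library numbered 1 stood apart from those numbered 2 and 3 in both genotypes. The chi-square of recovered reads per gene was 33.4 and 35.2 between mutant library 1 and mutant libraries 2 and 3. It was 2.73 between mutant libraries 2 and 3. In WT the same values were 14.0 and 16.8, against 3.51. The separation of library 1 touched several of the genes. In 7 of the 10, library 1 lay above the mean of libraries 2 and 3 in both genotypes, against 34.8% of all tested genes. The labels name no batch, so the results below are also given without both libraries numbered 1.

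The largest differences between the genotypes among the 10 genes were those of the chaperone SERPINH1 and the lysyl hydroxylase PLOD3. SERPINH1 fell in mutant cells, and PLOD3, P4HA2, P4HB and PCOLCE rose. PLOD1, PLOD2, P4HA1, CRTAP and P3H1 did not pass the test. The 4 rises and 1 fall stand beside 16% of all tested genes that rose and 16.6% that fell, so that 5 of 10 compare with 32.6% overall. With the library number as a block, 5 rose and 1 fell, against 25.1% and 24.6% of all tested genes. When 1 library was left out, 2 to 4 rose and 1 or 2 fell. Without mutant replicate 1 these were 4 and 2, against 24.7% and 24% of all tested genes. Without mutant replicate 2 they were 3 and 1 (9.77% and 11.8%), without mutant replicate 3 they were 3 and 1 (10.2% and 12.1%), and without WT replicate 1 they were 3 and 1 (11.8% and 13.2%). Without WT replicate 2 they were 2 and 1 (10.4% and 11.4%) and without WT replicate 3 also 2 and 1 (11.5% and 12.1%), where P4HB and PCOLCE were lost. Without both libraries numbered 1, 5 rose and 3 fell of the 10, where 27.9% and 26.8% of all tested genes did. The median log2 fold change of the 10 genes was 0.13, against -0.0031 over all tested genes.

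**Figure D1:**
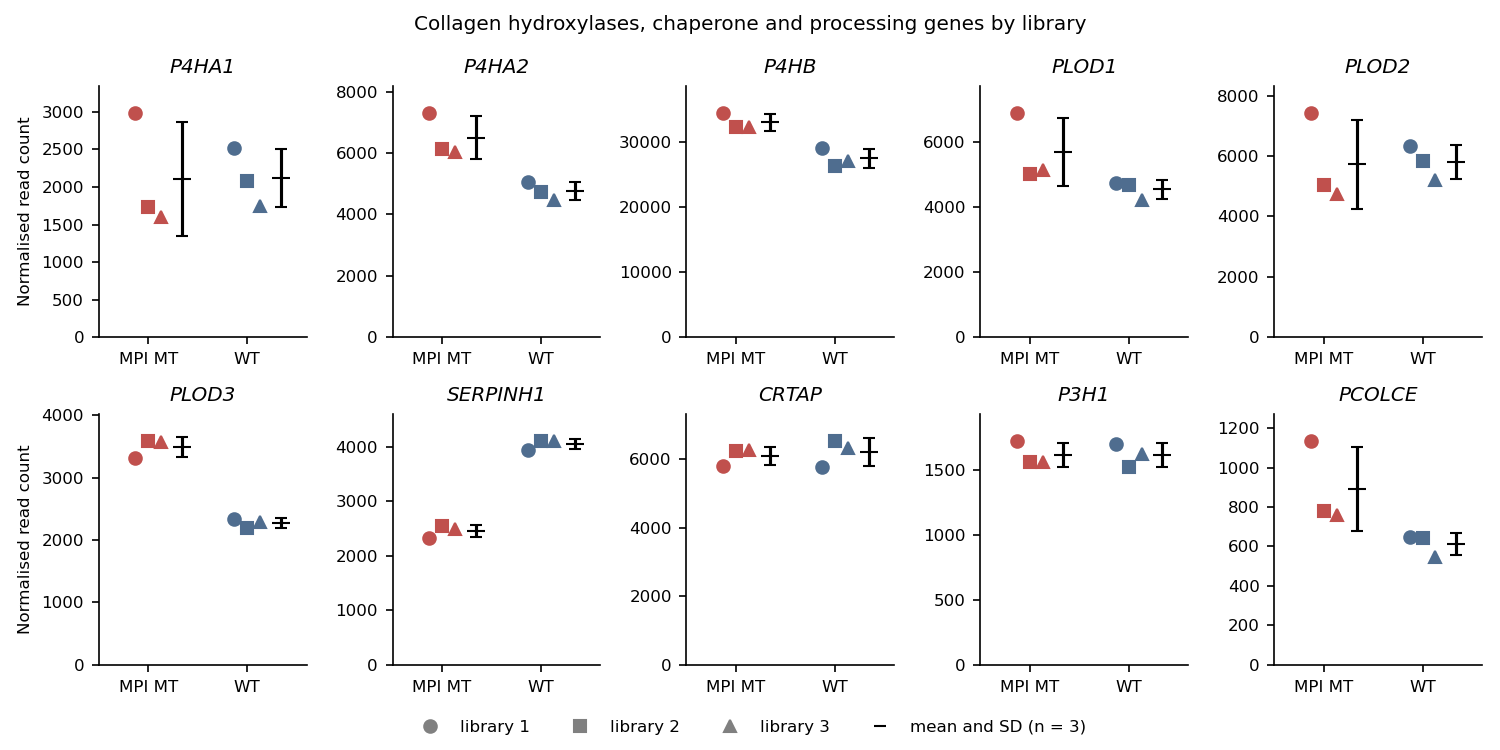
Normalised read counts (y axis, from 0) of the 10 genes in mutant (MPI MT, red, left) and WT (blue, right) libraries; symbols mark the library number and the bar gives mean and SD (n = 3). SERPINH1 lies lower and PLOD3 higher in all mutant libraries, and library 1 of the mutant lies far above the other mutant libraries for P4HA1, PLOD1, PLOD2 and PCOLCE.

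Promoter sequences are shown for the gene that fell, the gene with the largest rise and the pair with the largest excess in mutant library 1, because known heat shock and hypoxia elements lie near the starts of some of them. Each holds 250 bases before and 50 after a transcript start of RefSeq on GRCh38.p14, read 5′ to 3′ on the strand of the gene: SERPINH1 at chr11:75562003-75562302 (plus), PLOD3 at chr7:101217532-101217831 (minus), P4HA1 at chr10:73096817-73097116 (minus) and PLOD2 at chr3:146161135-146161434 (minus). Capitals mark matches, on either strand, to the heat shock element (TTC, any 2 bases, GAA, any 2 bases, TTC) and to the hypoxia response core ACGTG, which do not overlap each other here.
SERPINH1: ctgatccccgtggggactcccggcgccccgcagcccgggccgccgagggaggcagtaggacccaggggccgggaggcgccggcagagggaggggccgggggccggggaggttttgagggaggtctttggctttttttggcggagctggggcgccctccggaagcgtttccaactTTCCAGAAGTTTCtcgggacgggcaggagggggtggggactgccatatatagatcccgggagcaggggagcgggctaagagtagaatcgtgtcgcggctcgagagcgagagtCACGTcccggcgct
PLOD3: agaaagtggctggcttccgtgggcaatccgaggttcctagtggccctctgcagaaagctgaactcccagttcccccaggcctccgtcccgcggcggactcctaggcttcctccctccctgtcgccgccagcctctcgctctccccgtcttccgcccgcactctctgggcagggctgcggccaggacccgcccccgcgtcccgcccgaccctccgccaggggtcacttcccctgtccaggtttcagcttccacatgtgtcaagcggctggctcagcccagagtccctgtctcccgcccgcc
P4HA1: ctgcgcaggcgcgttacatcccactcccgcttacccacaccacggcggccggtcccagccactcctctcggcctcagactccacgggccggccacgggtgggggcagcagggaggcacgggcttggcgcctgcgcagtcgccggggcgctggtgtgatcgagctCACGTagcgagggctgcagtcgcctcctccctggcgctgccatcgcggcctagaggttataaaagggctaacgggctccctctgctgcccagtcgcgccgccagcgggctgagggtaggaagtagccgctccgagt
PLOD2: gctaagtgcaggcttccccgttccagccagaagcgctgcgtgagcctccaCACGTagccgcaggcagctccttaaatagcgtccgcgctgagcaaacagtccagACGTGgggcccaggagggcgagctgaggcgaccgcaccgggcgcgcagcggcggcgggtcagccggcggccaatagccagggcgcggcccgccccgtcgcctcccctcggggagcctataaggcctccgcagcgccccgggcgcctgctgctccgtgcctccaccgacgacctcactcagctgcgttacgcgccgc

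The heat shock element began 76 bases before the start of SERPINH1. It was present in 0.490% of 35116 promoter windows of the same length, and in 1 of the 11 windows of the 10 genes (SERPINH1 has 2). The hypoxia core began 86 bases before the start of P4HA1, 200 and 146 bases before that of PLOD2, and 37 bases into the transcript of SERPINH1 (184 bases before the start in its other window). It was found in 4 of the 11 windows, which belong to 3 of the 10 genes, and in 21.4% of all windows. The 2 windows of SERPINH1 overlap. PLOD3 held neither run of letters in its window. These matches describe the sequence and were not measured as bound sites.

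Prolyl 4-hydroxylase is a tetramer of catalytic alpha subunits, from P4HA1 or P4HA2, with the beta subunit P4HB, which is also protein disulfide isomerase. P4HA2 (chromosome 5, 132191838 to 132295315, minus strand, GENCODE 29 on GRCh38) measured 7308, 6148 and 6047 in mutant libraries, against 5058, 4742 and 4466 in WT libraries. Every mutant library lay above every WT library. The rise was 0.45 ± 0.09 (limma adjusted p = 0.00603), and it passed under all 18 alternatives, between 0.36 and 0.50.

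P4HB (chromosome 17, 81843159 to 81860694, minus strand) was the most abundant of the 10 genes per length, with a mean of 6229 per kb of exon in mutant and 5188 in WT libraries. Its levels were 34504, 32316 and 32279 in mutant libraries and 29154, 26349 and 27038 in WT libraries, again without overlap. The rise of 0.26 ± 0.07 (limma adjusted p = 0.0257) was small, 1.20-fold. It did not pass without mutant replicate 2 (adjusted p = 0.0750) or 3 (0.0662) or without WT replicate 2 (0.116) or 3 (0.0898), and without both libraries numbered 1 it was 0.28 and passed.

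P4HA1 (chromosome 10, 73007217 to 73096974, minus strand) is the other alpha subunit and a known hypoxia-inducible gene. It measured 2987, 1733 and 1606 in mutant libraries and 2515, 2086 and 1748 in WT libraries. The genotypes overlapped, because mutant library 1 was the highest of the 6 while mutant libraries 2 and 3 were the lowest. The log2 fold change was -0.05 ± 0.23 (limma adjusted p = 0.895). Without both libraries numbered 1 it was -0.20 and passed (limma adjusted p = 0.0322).

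The proportion of the 2 alpha subunits varied among libraries. Per kb of exon, P4HA1 made up 52.9%, 43.7% and 42.2% of their sum in mutant libraries 1, 2 and 3, and 57.8%, 54.7% and 51.8% in WT libraries 1, 2 and 3. The means were 46.3% ± 5.81 in mutant and 54.8% ± 2.96 in WT libraries (SD, n = 3), and mutant library 1 lay inside the WT range. An exact two-sided permutation test gave p = 0.2, where the smallest that 3 against 3 allows is 0.1. The proportion depends on the length used, and over coding length the means were 24.9% in mutant and 31.7% in WT libraries. The ratio of P4HB to the alpha subunits together was 3.56, 4.75 and 4.95 per kb in mutant libraries and 3.90, 4.03 and 4.68 in WT libraries, overlapping throughout (exact permutation p = 0.8).

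The prolyl 3-hydroxylase complex showed no difference past the test. P3H1, its enzyme (chromosome 1, 42746335 to 42767084, minus strand), measured 1726, 1563 and 1563 in mutant libraries and 1701, 1521 and 1622 in WT libraries. Its log2 fold change was 0.0025 ± 0.07 (limma adjusted p = 0.984). CRTAP, its scaffold partner (chromosome 3, 33113979 to 33147773, plus strand), measured 5805, 6251 and 6266 in mutant libraries and 5775, 6545 and 6329 in WT libraries. Its log2 fold change was -0.02 ± 0.07 (limma adjusted p = 0.824). The groups overlapped for both genes, and their SEs are among the smaller ones of the 10. Their ratio per kb of exon, CRTAP over P3H1, was 3.40, 4.04 and 4.05 in mutant libraries and 3.43, 4.35 and 3.94 in WT libraries, and in both genotypes library 1 had the lowest ratio (exact permutation p = 0.9). PPIB, which completes the complex and was on the list of other modification genes, averaged 4305 in mutant and 4018 in WT libraries (limma adjusted p = 0.330).

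Of the 3 lysyl hydroxylases, PLOD3 passed the test. PLOD3 (chromosome 7, 101205977 to 101218420, minus strand), the isoform that also carries glycosyltransferase activity toward collagen, measured 3306, 3591 and 3574 in mutant libraries and 2341, 2193 and 2281 in WT libraries. All mutant libraries lay above all WT libraries by far more than the spread within a genotype. The rise was 0.62 ± 0.06, 1.54-fold (limma adjusted p = 2.33e-04), and it passed under all 18 alternatives, between 0.59 and 0.68. PLOD3 shares 429 bp of exon with ZNHIT1 on the opposite strand, which measured 2375, 3204 and 3235 in mutant and 1773, 2068 and 1982 in WT libraries. Whether strand was used in counting is unknown here, and without it reads of the shared stretch cannot be told apart between these genes. Annotated antisense genes likewise share 548 bp of exon with P4HA2, 529 bp with P4HB, 305 bp with CRTAP and 47 bp with P4HA1, and they are not among the listed genes.

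PLOD1 (chromosome 1, 11934205 to 11975538, plus strand), the isoform known for hydroxylating lysines of the helix, measured 6902, 5029 and 5140 in mutant libraries and 4731, 4687 and 4218 in WT libraries. The genotypes did not overlap, as was so for 46.7% of all tested genes, but mutant library 1 stood well above the others. The log2 fold change of 0.31 ± 0.12 did not pass (limma adjusted p = 0.0840). With the library number as a block its adjusted p was 0.00407, and without both libraries numbered 1 the value was 0.19 and passed (0.00299). It also passed with DESeq2 on the recovered reads (adjusted p = 0.0461), and the authors' deposited table gives 0.32 with an adjusted p of 0.0461. These are not independent results, since the reads were recovered from that table and DESeq2 is among the submitters' tools.

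PLOD2 (chromosome 3, 146069440 to 146163653, minus strand) hydroxylates the telopeptide lysines that form the stable crosslinks of fibrotic tissue, and is a known hypoxia-inducible gene. It measured 7426, 5030 and 4732 in mutant libraries and 6334, 5826 and 5216 in WT libraries. As for P4HA1, mutant library 1 was the highest of the 6 and mutant libraries 2 and 3 the lowest, so that the genotypes overlapped. The log2 fold change was -0.04 ± 0.16 (limma adjusted p = 0.871). It became -0.24 without mutant replicate 1 (limma adjusted p = 0.0259) and -0.18 without both libraries numbered 1 (0.00804), and passed in those alternatives alone.

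The shares of the 3 isoforms were then compared. Per kb of exon PLOD2 made up 34.1%, 29.4% and 27.9% of the 3 isoforms in mutant libraries 1, 2 and 3, against 38.9%, 37.5% and 36.3% in WT libraries 1, 2 and 3. All mutant libraries lay below all WT libraries, and the difference of -7.12 percentage points reached the smallest p the design allows (exact two-sided permutation p = 0.1, 0.257 after Benjamini-Hochberg adjustment over 9 shares and ratios). PLOD3 took 20.4%, 28.3% and 28.4% in mutant libraries and 19.4%, 19.1% and 21.4% in WT libraries, with mutant library 1 inside the WT range (p = 0.2, exact permutation). PLOD1 held 43.8% ± 1.62 in mutant and 42.5% ± 0.857 in WT libraries (SD, n = 3; exact permutation p = 0.2). Such shares need no size factor, since all parts come from the same library.

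**Figure D2:**
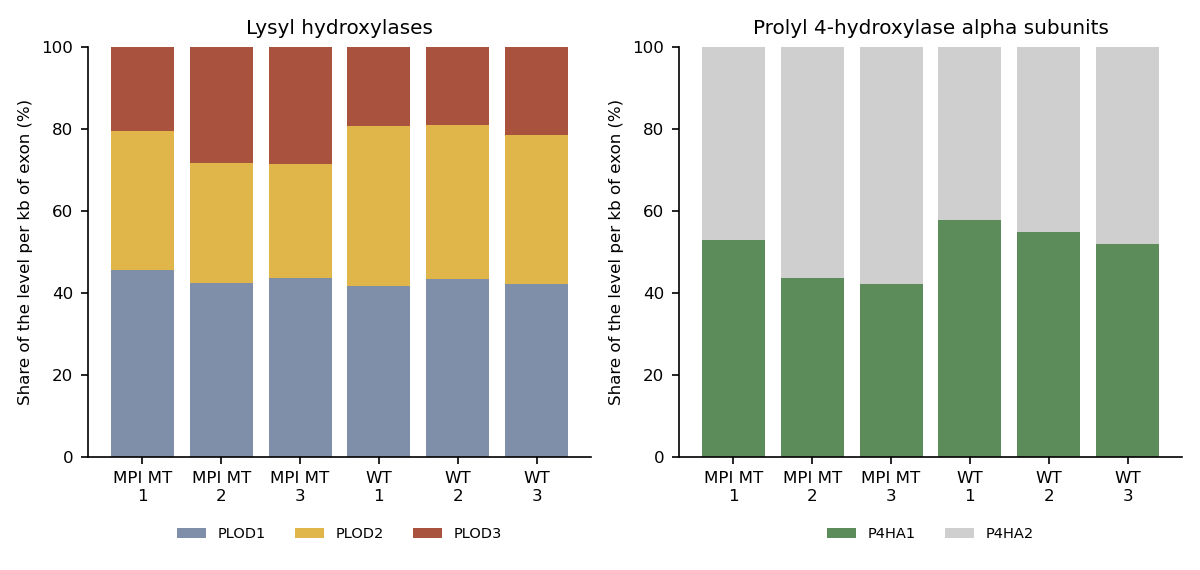
Share (y axis, percent of the summed level per kb of exon) of PLOD1, PLOD2 and PLOD3 (left) and of P4HA1 and P4HA2 (right) in each mutant (MPI MT) and WT library. PLOD2 holds 27.9% to 34.1% in mutant libraries and 36.3% to 38.9% in WT libraries, and mutant library 1 lies nearest to WT in the PLOD2, PLOD3 and P4HA1 shares.

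SERPINH1 (ENSG00000149257, chromosome 11, 75562056 to 75572783, plus strand), whose promoter is printed above, had the lowest adjusted p of the 10 genes. It measured 2334, 2552 and 2485 in mutant libraries and 3947, 4114 and 4113 in WT libraries. The genotypes were far apart, and the SD was 4.56% of the mean in mutant and 2.36% in WT libraries. The fall was -0.72 ± 0.06, to 0.605 of the WT level (limma adjusted p = 9.18e-05). It passed under all 18 alternatives, between -0.76 and -0.69, and was -0.71 without both libraries numbered 1. SERPINH1 was slightly lower in library 1 than in libraries 2 and 3, by -0.11 in mutant and -0.06 in WT cells on the log2 scale, whereas P4HA1 and PLOD2 were higher there. A processed pseudogene, SERPINH1P1 on chromosome 9, is annotated but not among the listed genes.

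SERPINH1 was also set against its client. Its ratio per kb of exon to COL1A1 plus COL1A2, the chains of type I collagen, was 0.0629, 0.108 and 0.105 in mutant libraries and 0.159, 0.180 and 0.177 in WT libraries, without overlap. The log2 difference was -0.94 (exact permutation p = 0.1, the smallest possible; 0.257 after adjustment over the 9 shares and ratios), and it ranged from -1.08 to -0.69 when 1 library was left out. Nearly all of that client level was COL1A1, which measured 57767, 37012 and 36811 in mutant libraries and 38507, 35471 and 36086 in WT libraries (limma adjusted p = 0.329). COL1A2 had 218, 90.0 and 68.6 in mutant libraries and 354, 268 and 250 in WT libraries, a fall of -1.37 ± 0.38 (limma adjusted p = 0.0235) that did not pass when any library other than mutant replicate 1 was left out (adjusted p from 0.0528 to 0.0815).

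Over the 6 libraries, the genes whose levels followed SERPINH1 most closely were SAMHD1, C8orf82 and SFMBT1, with Pearson r of 0.999 each. The likeness was taken over 12270 genes with a mean of at least 100, of which 1014 had r above 0.95, and it reflects mainly the step between the genotypes. The 3 genes fell by 0.30, 0.72 and 0.56 on the log2 scale.

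PCOLCE (chromosome 7, 100602177 to 100608175, plus strand) measured 1136, 777 and 758 in mutant libraries and 647, 643 and 546 in WT libraries. The genotypes did not overlap, and mutant library 1 was again the highest. The rise was 0.52 ± 0.16 (limma adjusted p = 0.0340). It did not pass without WT replicate 1 (0.0630), 2 (0.0770) or 3 (0.119) or with upper-quartile rescaling (0.0584), and without mutant replicate 1 the value was 0.33 and passed (0.0109). The antisense gene PCOLCE-AS1 shares 585 bp of exon with it, at levels of 40.8, 22.5 and 36.8 in mutant and 17.2, 17.5 and 4.25 in WT libraries.

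BMP1, the proteinase that PCOLCE assists, averaged 2519 ± 106 in mutant and 2462 ± 98.4 in WT libraries (SD, n = 3; limma adjusted p = 0.736). The ratio of PCOLCE to BMP1 per kb of exon was 0.914, 0.656 and 0.663 in mutant libraries and 0.537, 0.548 and 0.490 in WT libraries, without overlap. The log2 difference was 0.49 (exact permutation p = 0.1, the smallest possible; 0.257 adjusted).

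**Figure D3:**
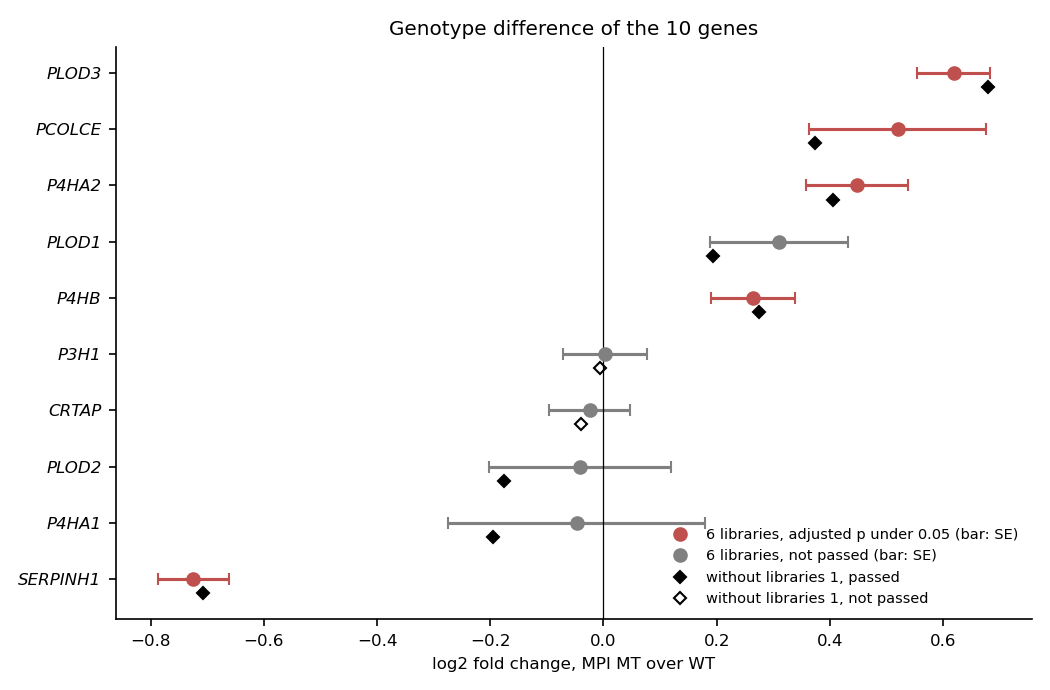
Log2 fold change of mutant over WT (x axis) for each of the 10 genes with all 6 libraries (circles, bar: SE; red where the limma adjusted p is under 0.05) and without both libraries numbered 1 (diamonds, filled where it passed). SERPINH1 lies at -0.72 and PLOD3 at 0.62, while P4HA1 and PLOD2 move from near 0 to -0.20 and -0.18 when libraries 1 are left out.

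Taken number by number, the genotype difference kept its sign in all 3 library pairs for 6 genes: P4HA2, P4HB, PLOD1, PLOD3, SERPINH1 and PCOLCE. In these 6 the genotypes did not overlap, as in 46.7% of all tested genes, and such genes keep their sign in any pairing. How many of all tested genes kept their sign was not counted. SERPINH1 differed by -0.76, -0.69 and -0.73 in the pairs numbered 1, 2 and 3, and P4HB by 0.24, 0.29 and 0.26, so these were nearly alike. PLOD1 (0.54, 0.10 and 0.29) and PCOLCE (0.81, 0.27 and 0.47) varied more, with the widest difference in pair 1. P4HA1 (0.25, -0.27 and -0.12) and PLOD2 (0.23, -0.21 and -0.14) changed sign: the mutant library was higher in pair 1 and lower in pairs 2 and 3.

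**Figure D4:**
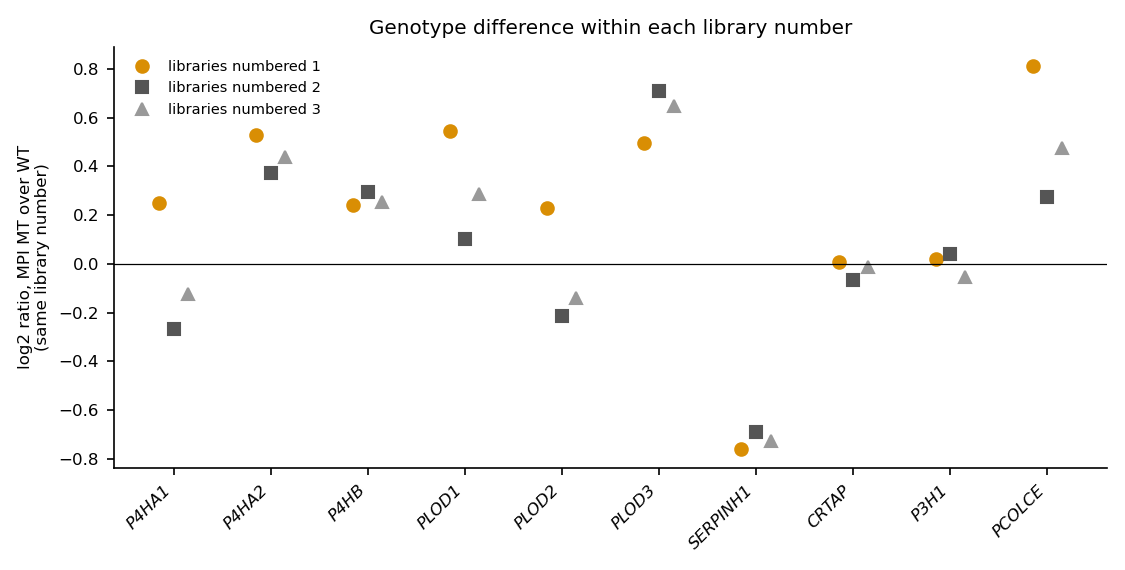
Log2 ratio of mutant over WT (y axis) between libraries with the same number, for each of the 10 genes. Pair 1 (circles) lies above 0 for P4HA1 and PLOD2 where pairs 2 and 3 lie below, while SERPINH1 stays between -0.76 and -0.69.

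Library 1 of the mutant exceeded the mean of mutant libraries 2 and 3 by 0.84 for P4HA1, 0.61 for PLOD2, 0.56 for PCOLCE and 0.44 for PLOD1 on the log2 scale. In WT the same differences were 0.40, 0.20, 0.13 and 0.09. Other genes shared this. All 9 tested fibrillar collagen chains were higher in library 1 of both genotypes, with a median of 0.95 in mutant and 0.35 in WT cells, and so were 13 of 19 hypoxia-inducible genes, with medians of 0.33 and 0.09. BNIP3, a mitophagy gene of that list, was higher by 0.88 in mutant and 0.36 in WT library 1, and the glycolytic gene PGK1 by 0.78 and 0.22. Other genes of the list went the other way. ANGPTL4 differed by -1.82 in mutant and -0.79 in WT library 1, and VEGFA by -0.13 and -0.05. The medians over all tested genes were -0.0012 and -0.01. The labels describe the same culture medium for all libraries, and what set library 1 apart was not tested.

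Other steps of the collagen route were read from lists of known genes. Counts of these and the later lists stand beside 16% of all tested genes that rose and 16.6% that fell. Without mutant replicate 1 these shares were 24.7% and 24%, and without both libraries numbered 1 they were 27.9% and 26.8%. Of 13 other modification and folding genes of the ER, 1 rose and 3 fell, with a median log2 fold change of 0.07. COLGALT1, which adds galactose to the hydroxylysines that PLOD enzymes make, rose by 0.34 ± 0.07 (limma adjusted p = 0.00578), with 4336 ± 242 in mutant and 3416 ± 145 in WT libraries (SD, n = 3). P3H2, a prolyl 3-hydroxylase known for basement membrane collagen, fell to 199 ± 25.4 in mutant libraries, against 437 ± 23.7 in WT libraries (-1.14 ± 0.12, limma adjusted p = 2.19e-04). P3H3 fell by 0.28, a call lost without mutant replicate 2 or 3 or WT replicate 1 (adjusted p from 0.0518 to 0.0583). P4HA3, the least abundant alpha subunit gene, averaged 13.1 in mutant and 43.4 in WT libraries and fell too (limma adjusted p = 0.00970). SPARC, a secreted collagen-binding protein, averaged 27964 in mutant and 26566 in WT libraries (limma adjusted p = 0.664). Without mutant replicate 1, 4 of the 13 rose.

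Of 10 genes for procollagen export from the ER, 0 rose and 2 fell (limma; 0 rose at an unadjusted p under 0.05, 0 with unblocked edgeR or DESeq2, and 1 with the library number as a block in limma or edgeR), the coat GTPase genes SAR1B (-0.32 ± 0.06, limma adjusted p = 0.00480) and SAR1A (-0.19 ± 0.06). The call of SAR1A was lost when any library other than mutant replicate 1 was left out, with adjusted p from 0.0786 to 0.147. TRAM2 averaged 11818 in mutant and 12140 in WT libraries (limma adjusted p = 0.673). Without mutant replicate 1, 2 of the 10 rose. Of 5 tested propeptide-cleaving genes, 0 rose and 2 fell (limma; 0 rose at an unadjusted p under 0.05, and 0 with edgeR, blocked or not, or DESeq2). TLL1, a BMP1-like proteinase, measured 18.6, 18.8 and 11.3 in mutant libraries and 563, 448 and 600.1 in WT libraries (-4.99 ± 0.22, limma adjusted p = 4.92e-06). ADAMTS2, which removes the N-terminal propeptide, had 74.3, 83.5 and 76.8 in mutant libraries and 307, 297 and 374 in WT libraries (-2.04 ± 0.13, limma adjusted p = 2.23e-05). Of 5 lysyl oxidases, LOXL1 rose (0.24 ± 0.06) and LOXL2 fell (-0.27 ± 0.08), and both calls were lost without mutant replicate 2 or 3 or WT replicate 2 or 3. LOX averaged 3758 ± 613 in mutant and 4735 ± 1043 in WT libraries (limma adjusted p = 0.158; 1.71e-04 with the block). Of 9 fibrillar chains 0 rose and 2 fell (limma; 1 rose at an unadjusted p under 0.05, 0 with unblocked edgeR or DESeq2, 1 with the block in limma and 2 with the block in edgeR), COL11A1 and COL1A2, and 6 fell without mutant replicate 1 while 1 fell without any one of the other libraries.

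P4HB also belongs to the general folding machinery of the ER. Of 15 other disulfide isomerases and chaperones, 0 rose and 6 fell (limma; 0 rose at an unadjusted p under 0.05, 0 with unblocked edgeR or DESeq2, and 1 with the block in edgeR), with a median of -0.14. When 1 library was left out 4 to 7 fell, with 4 without mutant replicate 2 or 3 or WT replicate 2, and without both libraries numbered 1, 1 rose and 9 fell. PDIA3 and PDIA6, which like P4HB are disulfide isomerases, fell by 0.27 and 0.26. The oxidase genes ERO1A (-0.38 ± 0.08) and ERO1B (-1.65 ± 0.15) and the cochaperone gene DNAJB11 (-0.30 ± 0.07; adjusted p = 0.0502 without WT replicate 3) fell, whereas CANX averaged 28291 in mutant and 28012 in WT libraries (limma adjusted p = 0.900).

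SERPINH1 is itself known as a heat shock gene, so other heat shock genes were set beside it. Of 17, 8 rose and 1 fell, with a median of 0.26. DNAJB1 averaged 7850 ± 892 in mutant and 4777 ± 444 in WT libraries (0.71 ± 0.10, limma adjusted p = 0.00120), HSPE1 rose by 0.64 ± 0.09 and HSPD1 by 0.47 ± 0.09. The gene that fell was CHORDC1 (-0.34), and HSPA8 did not pass (0.26 ± 0.13). When 1 library was left out, 6 to 11 rose and 1 or 2 fell. The 6 were found without mutant replicate 2 or 3 or WT replicate 1 or 2, where 9.77% to 11.8% of all tested genes rose. Without both libraries numbered 1, 11 rose and 4 fell. HSPA1A and HSPA1B are near-identical copies, so their separate counts are uncertain.

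Of 19 tested hypoxia-inducible genes, 4 rose and 2 fell, with a median of -0.03. VEGFA rose to 4865, 5547 and 5110 in mutant libraries, against 1694, 1819 and 1682 in WT libraries (1.58 ± 0.07, limma adjusted p = 4.93e-06). PFKFB4 rose by 0.72 ± 0.11. ANGPTL4 rose by 3.40 ± 0.47, with 154, 547 and 545 in mutant and 22.7, 39.6 and 40.4 in WT libraries. The 2 that fell were EGLN3 and ADM. EGLN3 averaged 5.79 in mutant and 17.7 in WT libraries (-1.51 ± 0.44, limma adjusted p = 0.0290). ADM fell by -0.72 ± 0.22 (limma adjusted p = 0.0393), with overlapping genotypes. The glycolytic gene ENO1 averaged 68259 in mutant and 75023 in WT libraries (limma adjusted p = 0.240). As for P4HA1 and PLOD2, the falls depended on the libraries: 9 fell without mutant replicate 1 and 10 without both libraries numbered 1, whereas 0 fell without WT replicate 1 or mutant replicate 3 (limma; 2 at an unadjusted p under 0.05 in each) and 1 fell without each of the other libraries. The share of all tested genes that fell moved too, from 16.6% with all libraries to 24% without mutant replicate 1. It was 26.8% without both libraries numbered 1, 13.2% without WT replicate 1 and 12.1% without mutant replicate 3.

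**Figure D5:**
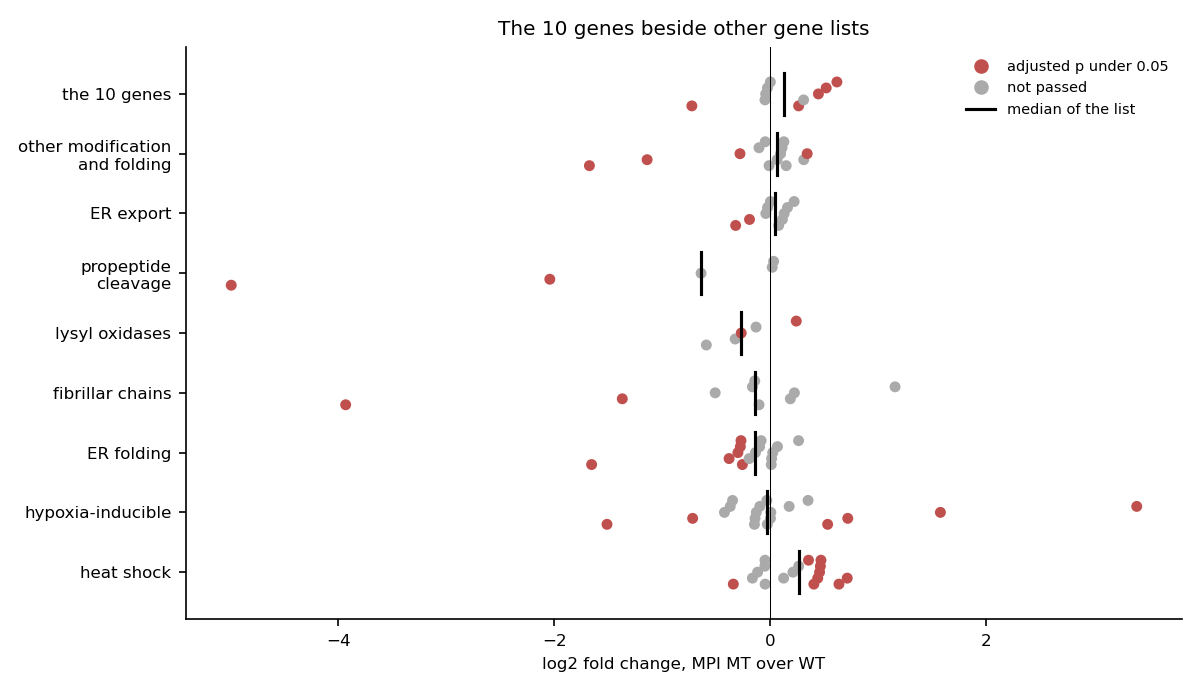
Log2 fold change of mutant over WT (x axis) for every tested gene of the 10 and of 8 other lists (rows); red points passed the limma test at adjusted p under 0.05 and the black line is the median of the list. The 10 genes lie between -0.72 and 0.62, the heat shock list has a median of 0.26 and the ER folding list of -0.14.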

How the data were processed

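RNA of 6 LX-2 libraries, 3 MPI MT and 3 WT, was poly(A)-selected and sequenced in read pairs, per the labels' protocols. Per the submitters' processing notes, the tools were STAR 2.5.2b, Subread 1.5.2 with featureCounts, Trimmomatic 0.36 and DESeq2, and the build was GRCh38. No source used here states which annotation was counted, whether strand was used, or how multi-mapped reads were treated. The authors deposited, for 17911 genes, a normalised signal per library (per the values, counts of reads per gene over a size factor that each library has), a log2 fold change and p-values. All of the signal values were whole multiples of 1 step per library within 0.01 of a read, so whole reads were recovered (3 reads were worth 2.72 to 3.49). Because the deposited table has no gene with a mean below 9.83, genes near detection in both genotypes were not analysed here. Genes with few reads in 1 genotype were tested. Among those called, LUM had 1 read in each mutant library and EGLN3 had 3, 9 and 6 reads in mutant libraries. A total of 22 symbols were stored as dates. They were replaced by the GENCODE 29 symbol of the gene ID, or by the ID where GENCODE 29 lacked it.

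The main test was limma-trend (limma 3.58.1, R 4.3.3) with robust variances on log2(signal + 1), for 17893 genes whose mean level was 10 or more, with Benjamini-Hochberg adjustment and a threshold of 0.05. The added 1 understates changes of genes with low levels. Alternatives were a replicate block, each library left out, both libraries numbered 1 left out, TMM and upper-quartile rescaling, other filters (none, a mean of 50) and pseudocounts (0.5, 5), the authors' own columns, and, on recovered reads, DESeq2 1.42.0 and edgeR 4.0.16, whose quasi-likelihood test called 3007 genes higher and 2873 lower. The tests were first tried on simulated data. Shares and ratios were compared by exact permutation (SciPy 1.17.1). Levels per kb used the union of annotated exons of GENCODE 29.

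Same-numbered libraries deviated together from their genotype means (correlations 0.545, 0.189 and 0.276 for numbers 1, 2 and 3), and a fit with the number as a block was therefore set beside the main tests, which are unpaired. This comes from the data, since the labels name no shared batch. Mutant library 2 correlated more with WT library 3 (0.299) than with WT library 2, and mutant library 3 with WT library 2 at 0.168, so numbers 2 and 3 were not told apart. Replicate libraries differed by more than counting noise (chi-square per gene 2.73 to 35.2).

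The 10 genes, the other lists and the motifs were chosen with earlier results of these data known. Within each list, up to 3 called genes with the largest change were named if their mean reached 100 in either genotype, with the most abundant uncalled gene and the partners of the ratios. Genes outside that rule (P4HA3, PPIB, PDIA3, PDIA6, CHORDC1, HSPA1A, HSPA1B, BNIP3, PGK1, EGLN3, ADM, ACTA2 and other marker genes, ZNHIT1 and PCOLCE-AS1) were named after their values were seen. Promoters of all 10 genes were found in the RefSeq table for GRCh38.p14.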

Additional observations from a re-analysis of the deposited data

How the results depend on the processing

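PLOD3, SERPINH1 and P4HA2 passed in the same direction under all 18 alternatives. P4HB and PCOLCE passed in 14 of 18, PLOD1 in 5, PLOD2 in 2, P4HA1 in 1 and CRTAP and P3H1 in 0. DESeq2 on the recovered reads and the authors' columns were counted separately among the 18, though the reads come from the authors' table. Over the 10 genes, MPI and the genes that the naming rule took from the other lists, 636 values kept their sign and their side of the threshold, 30 lost the call, 18 gained it and 18 changed sign. With the replicate block 4494 of all tested genes rose, against 2866 without it, and edgeR with the block called 4647. For the shares and ratios, flipping signs within numbered pairs (replicate block) gave exact permutation p of 0.25, the smallest possible, to 0.75. The block added PLOD1 to the calls among the 10 genes. Without both libraries numbered 1, 4989 rose and 4788 fell (2963 with all libraries), and 3 of the 10 genes fell. With 1 library left out, 1749 to 4415 of all genes rose and 2036 to 4291 fell, and of the 10 genes 2 to 4 rose and 1 or 2 fell. Of the other lists, 14 genes rose and 19 fell. These counts were 26 and 39 without both libraries numbered 1, 23 rose in edgeR with the block, and 11 to 23 rose and 11 to 34 fell with 1 library left out.

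Signs changed for these values near 0. With 1 library left out, the log2 fold change was -0.327 to 0.120 for P4HA1, -0.243 to 0.0820 for PLOD2, -0.0766 to 0.0137 for CRTAP, -0.0450 to 0.0408 for P3H1, -0.0124 to 0.0470 for CANX and -0.0464 to 0.136 for SPARC. P4HA1 was 0.00182 with edgeR. Without both libraries numbered 1, P3H1 was -0.00675 and SPARC -0.0236, and with upper-quartile rescaling P3H1 was -0.0286 and CANX -0.0172. The log2 difference of P4HB over the alpha subunits (0.06) was -0.0523 without length, -0.0476 with coding length and -0.0266 to 0.210 with 1 library left out, and that of CRTAP over P3H1 (-0.03) was -0.117 to 0.0567. The cause was not tested. Upper-quartile rescaling shifted the median of all genes to -0.034. Depth was at least 514 reads per library for each of the 10 genes, whereas the SD among mutant libraries was 36.2% of the mean for P4HA1 and 25.8% for PLOD2.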
